A study of Mus musculus with 3 samples.

Results

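The genes examined here drive the passage from G1 into S phase of the cell cycle, and they act downstream of p21, the CDK inhibitor that the series title names as a target of the nucleoporin Seh1. They are the cyclin D genes Ccnd1, Ccnd2 and Ccnd3, the kinase genes Cdk4, Cdk6 and Cdk2, the retinoblastoma family genes Rb1, Rbl1 and Rbl2, and the transcription factor gene E2f1. Their peaks were taken from a chromatin immunoprecipitation with sequencing (ChIP-seq) study of mouse neural stem cells, as all peaks whose gene name, set by the authors' annotation, was one of these 10 symbols. This gave 11 of the 16113 Seh1 peaks and 4 of the 5314 peaks of the IgG control. All libraries came from wild type primary neural stem cells that had been isolated from the cortex of newborn mice (postnatal day 0) and grown in growth medium with 20 ng/ml EGF and 20 ng/ml bFGF. There was 1 library for Seh1, 1 for IgG (an antibody with no chromatin target) and 1 for input chromatin, and the names in the file headers pair each peak list with the input. The labels give no time in culture, passage or number of animals. Peak lists hold no expression values, so the cell type could not be checked against its markers.

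In G1, D-type cyclins bind and activate CDK4 and CDK6, which phosphorylate the retinoblastoma protein and its relatives p107 and p130, the products of Rbl1 and Rbl2. Phosphorylation releases E2F transcription factors such as E2F1, whose target genes include those for cyclin E and for DNA replication, and cyclin E with CDK2 then completes the step into S phase. p21 binds cyclin and CDK complexes and blocks this chain, and in the developing cortex the length of G1 in progenitors is linked to the choice between proliferation and differentiation. Cyclin D2 is known in cortical progenitors for its location in their basal endfeet.

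A peak is a stretch where the peak caller found more reads than in the input. The deposited score was 0 for every peak of both lists, so a peak could be described by its position, its width and its annotation, but not by its height, and the depth of sequencing behind it is unknown. With 1 library in each group no value has a replicate error and no test between groups was possible. Coordinates are those of mm10, the mouse assembly GRCm38, counted from 1. Distances run from the centre of a peak to the nearest start site of a RefSeq transcript, with negative values upstream, and a peak is given to the gene of that start site even when it lies inside another gene.

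None of the peaks of these genes reached a start site. The 300-base windows at 3 of the start sites are shown as stretches without a peak. The distance from each of them to the nearest Seh1 peak centre is given below the sequences. RefSeq windows of GRCm38.p6, which run from 250 bases before to 50 bases after a start site, were found for 7 of the 10 genes. Rbl1 and Rbl2 are shown as the retinoblastoma family members with such a window, and Cdk2 as a gene without a peak. Capitals mark matches to the E2F motif, searched on both strands as TTTCCCGC, TTTGGCGC, TTTCGCGC and TTTGCCGC, which can overlap each other's reverse complement. Such a match was present in 2.26% of the 32851 windows of all genes.
Rbl1, chr2:157204485-157204784, minus strand: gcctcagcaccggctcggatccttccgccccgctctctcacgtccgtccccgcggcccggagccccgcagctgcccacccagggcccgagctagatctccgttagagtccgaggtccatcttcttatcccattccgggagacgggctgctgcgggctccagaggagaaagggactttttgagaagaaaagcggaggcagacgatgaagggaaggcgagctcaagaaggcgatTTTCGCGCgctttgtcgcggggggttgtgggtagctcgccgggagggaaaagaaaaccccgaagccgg
Rbl2, chr8:91069807-91070106, plus strand: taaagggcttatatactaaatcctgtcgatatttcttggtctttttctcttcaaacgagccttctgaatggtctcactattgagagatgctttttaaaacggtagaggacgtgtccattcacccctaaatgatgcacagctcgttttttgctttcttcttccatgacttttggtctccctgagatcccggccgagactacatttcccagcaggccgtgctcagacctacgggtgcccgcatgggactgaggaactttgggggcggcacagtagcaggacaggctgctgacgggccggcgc
Cdk2, chr10:128705002-128705301, minus strand: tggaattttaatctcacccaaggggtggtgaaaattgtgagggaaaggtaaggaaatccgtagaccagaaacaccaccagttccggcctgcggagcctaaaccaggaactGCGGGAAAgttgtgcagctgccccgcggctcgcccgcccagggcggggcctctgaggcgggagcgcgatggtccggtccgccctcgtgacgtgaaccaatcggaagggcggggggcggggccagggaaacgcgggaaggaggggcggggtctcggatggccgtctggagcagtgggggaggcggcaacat
The Rbl1 window held 1 match, TTTCGCGC, from 18 to 11 bases before the start site, and the Cdk2 window held 1 match on the other strand, GCGGGAAA. The Rbl2 window held none of these letters, nor did the windows of E2f1, Cdk4, Cdk6 and Ccnd3. The window of E2f1 is set at a start site 466 bp inside the gene and that of Cdk6 at one 2.89 kb inside it, so they do not show the outer ends of these genes. Ccnd3 had 2 windows, 1 at its outer end and 1 at a start site 88.4 kb inside the gene. The nearest Seh1 peak centre lay 17.8 kb from the Rbl1 window, 8.44 kb from the Rbl2 window and 33.8 kb from the Cdk2 window. A match of letters is a description and not a site of binding.

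Of the 10 genes, 6 were given at least 1 Seh1 peak, whereas 31.9% of the 21775 protein-coding genes were (95% exact binomial interval 31.2 to 32.5%, counting error only). These were Ccnd1, Ccnd2, Cdk6 and all 3 retinoblastoma family genes, and the 4 without a peak were Ccnd3, Cdk4, Cdk2 and E2f1. The share given a Seh1 peak depended on gene length, and was also read among protein-coding genes within 1.5-fold of each gene's own length. It was 59.8% around Cdk6, 55.2% around Rb1, 42.0% around Rbl1, 41.1% around Rbl2, 32.5% around Ccnd2 and 23.5% around Ccnd1. For the genes without a peak it was 50.9% around Ccnd3, 23.6% around E2f1 and 22.2% around Cdk4 and Cdk2. The IgG list gave peaks to 1 of the 10, Cdk6, against 11.3% of protein-coding genes (10.9 to 11.8%). No peak of either list lay within 1 kb of a start site of these genes, where 1.11% of protein-coding genes had a Seh1 peak and 0.115% an IgG peak. The genes were picked with earlier results of these lists known, so the count of 6 is a description.

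The count moved with the distance allowed. Within 10 kb of a start site, 1 of the 10 genes (Rbl2) had a Seh1 peak, beside 9.69% of protein-coding genes, and within 20 kb 3 did (Rb1, Rbl1 and Rbl2), beside 16.6%. For IgG both counts were 0 of 10, beside 2.36% and 4.28%. Within 100 kb the Seh1 peaks of Cdk6 dropped out and 5 of 10 genes were left, beside 29.1%, while the nearest IgG peak of Cdk6 stayed and gave 1 of 10, beside 8.90%. With peaks above the smallest width alone, 5 genes had a Seh1 peak and 1 an IgG peak, beside 26.2% and 7.47%. By position, inside or within 10 kb of the gene, the counts were 3 for Seh1 and 0 for IgG, beside 28.6% and 8.56%. Cdk6 was the 1 gene of the 10 with peaks of both lists, as 6.42% of protein-coding genes had.

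**Figure D1:**
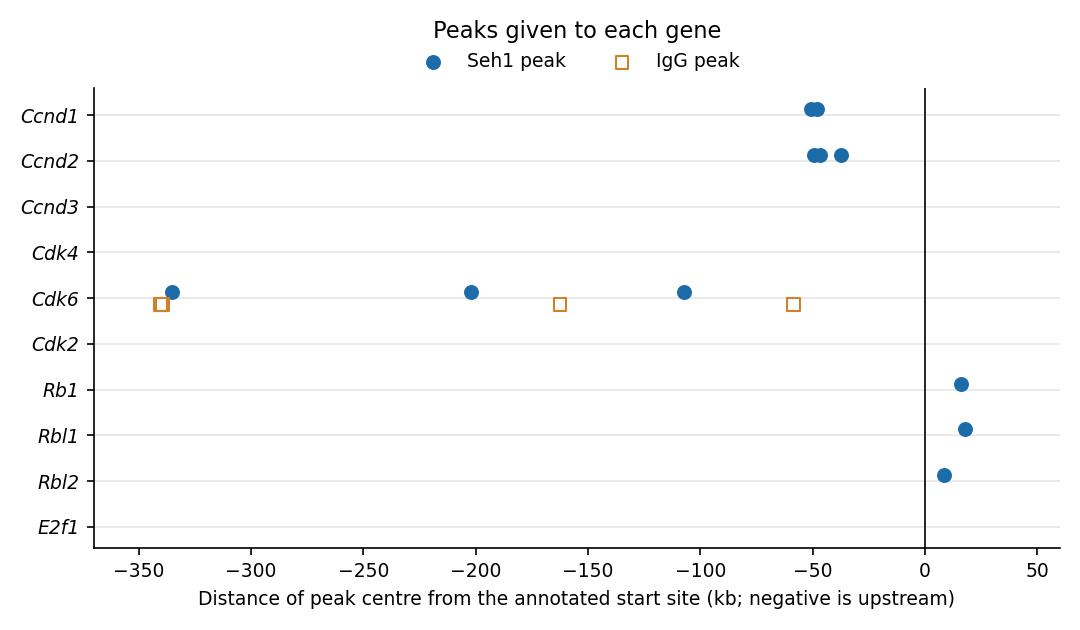
Signed distance in kb from the annotated start site to the centre of each peak given to the 10 genes, with filled circles for the Seh1 library and open squares for the IgG library. The 3 retinoblastoma family peaks lie 8.49 to 17.8 kb downstream of their start sites, the 5 cyclin D peaks lie 37.4 to 50.7 kb upstream, and both libraries have peaks far upstream of Cdk6.

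The retinoblastoma family genes each had 1 Seh1 peak under their own name, and each of these lay in an intron of its gene. Rb1, which encodes the retinoblastoma protein (Entrez Gene 19645, chromosome 14 from 73192858 to 73325951), had a peak of 302 bp from 73309577 to 73309878 in intron 2 of 26. Its centre was 16095 bp downstream of the start site, in an ID_B1 element, a SINE repeat of the B4 family. Rbl1, which encodes p107 (Entrez Gene 19650, chromosome 2 from 157145893 to 157204534), had a peak of 310 bp from 157186573 to 157186882. That peak lay in intron 11 of 21, 17807 bp downstream of the start site, and carried no repeat label. Rbl2, which encodes p130 (Entrez Gene 19651, chromosome 8 from 91070057 to 91123844), had a peak from 91078422 to 91078664 in intron 3 of 21. It had the smallest width in the Seh1 list, 243 bp, and lay 8486 bp downstream, the nearest of all 11 peaks to a start site.

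Rbl2 held a further Seh1 peak that its name does not show. This peak of 417 bp, from 91104594 to 91105010, lay in intron 14 of 21 of the same Rbl2 transcript, but it was given to the neighbouring gene Aktip, from whose start site its centre was 28937 bp downstream. With 92.5% of all Seh1 peaks narrower, it lay 26.3 kb from the intron 3 peak. Counted by position, Rbl2 thus contained 2 Seh1 peaks, and Rb1 and Rbl1 contained 1 each.

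No IgG peak centre lay inside any of the 3 genes. The nearest one to Rb1 was 46.2 kb from the gene, in intron 1 of 5 of a transcript of Itm2b, and the nearest to Rbl2 and Rbl1 were 131 and 385 kb away. A Seh1 peak centre lay inside 3 of the 10 genes, all of them of the retinoblastoma family, and inside 19.5% of protein-coding genes. An IgG peak centre lay inside 0 of the 10 and inside 6.26% of protein-coding genes. These shares depended on gene length. Among protein-coding genes within 1.5-fold of its own length, a Seh1 peak inside the gene was found for 54.9% (52.5 to 57.2%) around Rb1, which spans 133 kb. The same share was 33.8% (32.2 to 35.5%) around Rbl1 at 58.6 kb and 31.6% (30.1 to 33.2%) around Rbl2 at 53.8 kb. A peak inside a gene of this length was therefore common in the Seh1 list. For IgG the 3 shares were 17.4%, 10.2% and 9.17%.

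The other 7 genes contained no Seh1 peak. Cdk6 and Ccnd3 span 190.0 and 94.6 kb, and they are of a length at which 62.6% and 46.9% of protein-coding genes contained one. Cdk4 (3.75 kb), Cdk2 (7.11 kb), Ccnd1 (9.90 kb) and E2f1 (10.5 kb) are of a length at which 3.35 to 7.18% of protein-coding genes contained a Seh1 peak, and for Ccnd2 (27.0 kb) the share was 18.4%.

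**Figure D2:**
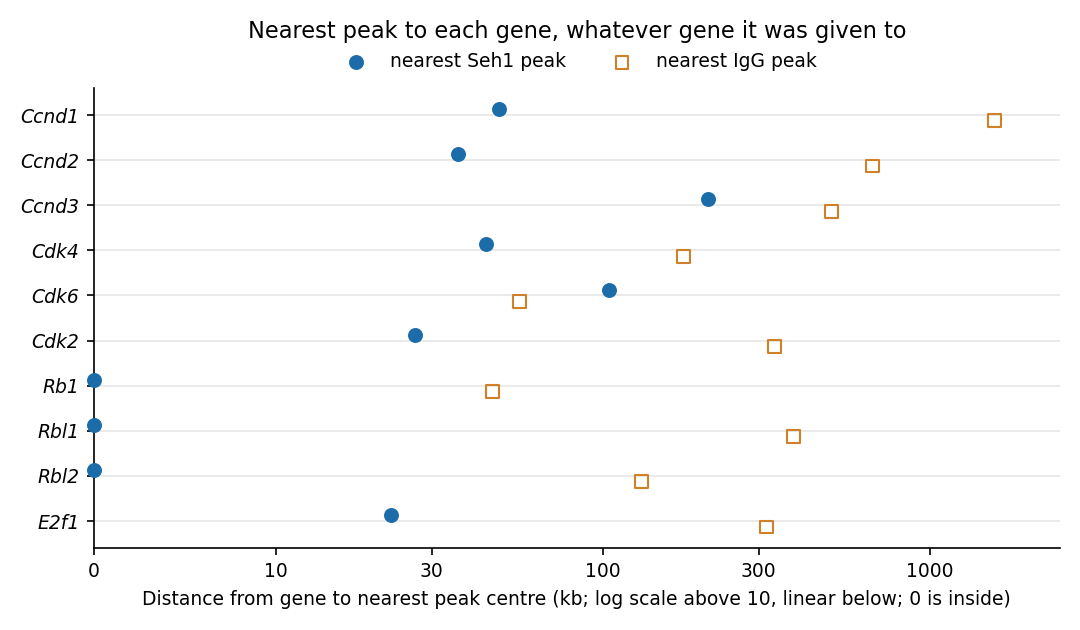
Distance in kb from each of the 10 genes to the nearest peak centre, whatever gene that peak was given to, on an axis that is logarithmic above 10 kb and linear below, where 0 marks a peak inside the gene. Filled circles for the Seh1 library reach 0 at Rb1, Rbl1 and Rbl2, and the open square for the IgG library lies nearer than the circle at Cdk6 alone.

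The cyclin D genes had 5 Seh1 peaks, all upstream and none inside a gene of the family. Ccnd1 encodes cyclin D1 (Entrez Gene 12443, chromosome 7 from 144929931 to 144939831) and had 2 intergenic peaks without a repeat label. They ran from 144987872 to 144988217 (346 bp, 48119 bp upstream) and from 144990491 to 144990733 (243 bp, 50687 bp upstream), with centres 2.57 kb apart. The first was the widest of the 11 peaks and wider than 82.7% of all Seh1 peaks, and the second had the smallest width.

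Ccnd2 encodes cyclin D2 (Entrez Gene 12444, chromosome 6 from 127125162 to 127152188) and had 3 peaks. They ran from 127188287 to 127188544 (258 bp), from 127197474 to 127197725 (252 bp) and from 127200470 to 127200752 (283 bp). Their centres were 37367, 46551 and 49563 bp upstream of the Ccnd2 start site. All 3 were annotated in intron 2 of 2 of 9330179D12Rik, a long non-coding RNA gene from 127149389 to 127212419, which shares 2800 bp with the span of Ccnd2 at its start. The middle peak was labelled as a B4 element, a SINE repeat, and the other 2 had no repeat label. A peak given to Ccnd2 by the nearest start site is thus, by position, a peak within the non-coding gene.

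The cyclin D peaks lay closer to one another than most Seh1 peaks lay to their nearest neighbour. The Ccnd1 pair was 2.57 kb apart and the 2 farther Ccnd2 peaks 3.01 kb apart, while the third Ccnd2 peak was 9.18 kb from the next. Over all Seh1 peaks, 7.84% had another within 3 kb and 20.8% within 10 kb, and the median distance to the nearest was 37.7 kb. Beyond these groups the next Seh1 peaks were 183 kb (given to Fgf3) and 98.8 kb (Smim38) away at Ccnd1, and 145 kb (Fgf6) and 142 kb (Gm38404) away at Ccnd2. IgG peaks were far from both, at 1578 kb from Ccnd1 and 668 kb from Ccnd2. Of protein-coding genes, 13.1% were given 2 or more Seh1 peaks and 6.08% were given 3 or more.

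Ccnd3, which encodes cyclin D3 (Entrez Gene 12445, chromosome 17 from 47505051 to 47599689), was the member of the family without a peak. The nearest Seh1 peak centre was 209995 bp from the gene, in intron 2 of 16 of a Trerf1 transcript, which was the greatest such distance among the 10 genes. The nearest IgG peak centre was 500043 bp away. The cyclin D genes also differ in their surroundings. On its upstream side Ccnd1 is 242 kb from the next protein-coding gene, Tpcn2, and Ccnd2 is 295 kb from Parp11, whereas Ccnd3 is 2.73 kb from Taf8 and overlaps Bysl.

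The width of such gaps moved with the share of genes given a peak. Where the wider of the gaps to the neighbouring protein-coding genes was 200 kb or more, as for Ccnd1 and Ccnd2, 60.3% of protein-coding genes (58.5 to 62.2%) were given a Seh1 peak and 34.3% (32.5 to 36.1%) an IgG peak. Where it was under 10 kb, as for Ccnd3, Cdk4 and Cdk2, these shares were 16.1% (15.1 to 17.1%) and 3.72% (3.24 to 4.24%). Rb1, Rbl1, Rbl2 and E2f1 fell between 10 and 50 kb, where 26.7% of genes had a Seh1 peak and 6.46% an IgG peak. The part of these gaps in the peaks of Ccnd1 and Ccnd2 was not tested.

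**Figure D3:**
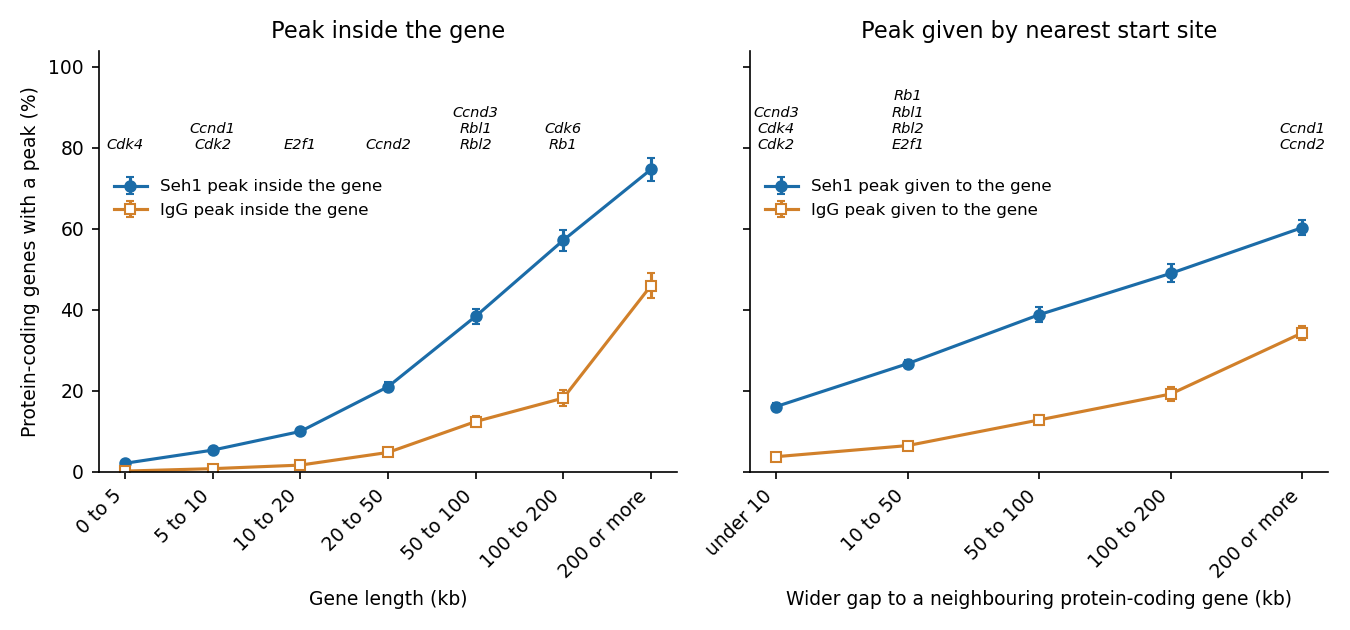
Percent of protein-coding genes with a peak inside the gene by gene length in kb (left) and given a peak by the nearest start site by the wider gap to a neighbouring protein-coding gene in kb (right), with circles for Seh1, squares for IgG, 95% exact binomial intervals as bars, and the 10 genes named above the bin they fall in. The Seh1 share climbs from 2.09% to 74.7% with length and from 16.1% to 60.3% with the gap, and Cdk6 is not placed at right because no protein-coding gene precedes it on its chromosome.

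Among the kinase genes, Cdk6 had peaks in both lists, and Cdk4 and Cdk2 in neither. Cdk6 (Entrez Gene 12571, chromosome 5 from 3341004 to 3531008) is the first protein-coding gene of its chromosome in the gene table, and all peaks of both lists between the start of the chromosome and the gene were given to it. Its 3 Seh1 peaks were intergenic and lay 107354, 201907 and 335249 bp upstream. They ran from 3236406 to 3236672 (267 bp), from 3141848 to 3142125 (278 bp) and from 3008520 to 3008768 (249 bp). The nearest had its centre in Gm15772, a transcribed pseudogene, and the other 2 were labelled as ERVK long terminal repeats, RLTR16C_MM and RMER13A.

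The 4 IgG peaks of Cdk6 were spread over the same stretch. They lay 58476, 162482, 339307 and 340441 bp upstream, and ran from 3285300 to 3285535 (236 bp), from 3181274 to 3181548 (275 bp), from 3004346 to 3004827 (482 bp) and from 3003335 to 3003570 (236 bp). One was in an ERVK element (IAPEz-int) and 2 were in L1 elements (L1MA9 and Lx8b). The nearest IgG peak was closer to Cdk6 than the nearest Seh1 peak, which was the case for no other of the 10 genes. The farthest Seh1 peak was 4.06 kb from an IgG peak centre, and the other 2 were 39.4 and 48.9 kb from one. No Seh1 or IgG peak lay within the 190.0 kb of Cdk6 itself or within 10 kb of it.

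Cdk4, the other partner of the D-type cyclins (Entrez Gene 12567, chromosome 10 from 127063535 to 127067288), lies between close neighbours, 3.35 kb from Marchf9 and next to Tspan31. The nearest Seh1 peak centre was 44.0 kb from the gene, in intron 5 of 14 of an Os9 transcript, and the nearest IgG peak centre was 177 kb away. Cdk2, the kinase that pairs with cyclins E and A (Entrez Gene 12566, chromosome 10 from 128697938 to 128705051), overlaps Pmel in the gene table. Its nearest Seh1 peak centre was 26.7 kb away, in exon 4 of 4 of Suox, and the nearest IgG peak centre was 335 kb away. Neither kinase gene had a peak of either list within 10 kb.

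E2f1, the E2F gene of the set (Entrez Gene 13555, chromosome 2 from 154559400 to 154569892), had no peak either. The nearest Seh1 peak centre was 22.5 kb from the gene, in intron 2 of 3 of Pxmp4, and was given to that gene. The nearest IgG peak centre was 317 kb away. Among the 4 genes without a peak, the nearest Seh1 peak was thus between 22.5 and 210.0 kb away and was given to another gene.

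Peaks in the surroundings were also counted, whatever gene they were given to. The window takes in the gene and its own peaks, and it grows with gene length. Within 500 kb of either end, the 10 genes had 7 to 12 Seh1 peak centres, with a median of 9.5, and the median over all protein-coding genes was 8 (95% of genes between 1 and 19). Cdk4 and Rb1 had the most, 12, and Cdk6 the fewest, 7. The Cdk6 window reaches below 3 Mb of its chromosome, where neither list had a peak, so its counts come from a shorter stretch. IgG peak centres in the same windows numbered 0 to 4, with a median of 1, equal to the median of 1 over all protein-coding genes. Cdk6 had 4 IgG peaks and Cdk4 had 3, whereas the 3 cyclin D genes had 0. For Ccnd3 that 0 depended on the window limit, since its nearest IgG peak centre was 500043 bp away, just outside.

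As a set, the 11 Seh1 peaks were of ordinary width and distance for the list. Their widths ran from 243 to 346 bp with a median of 267 bp, and all Seh1 peaks had a median of 266 bp. The smallest width was shared by 2 of the 11 and by 27.2% of all Seh1 peaks. The median absolute distance to the start site was 48.1 kb, and 37.8 kb over all Seh1 peaks with a distance. There were 3 beyond 100 kb, all of Cdk6, and 25.1% of all Seh1 peaks were that far.

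By class, 6 of the 11 were in introns and 5 were intergenic, and none was in an exon, untranslated region, promoter or gene end. Of all Seh1 peaks, 36.8% were intronic, 54.3% intergenic and 8.94% of another class. Upstream of the start site lay 8 of the 11 peaks, namely those of Ccnd1, Ccnd2 and Cdk6, and 43.4% of all Seh1 peaks. A repeat label was carried by 4 of the 11 and by 39.8% of all Seh1 peaks. None of the 11 shared a base with an IgG peak, and only 0.372% of all Seh1 peaks did (0.284 to 0.479%), so a lack of overlap was the rule in this list.

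**Figure D4:**
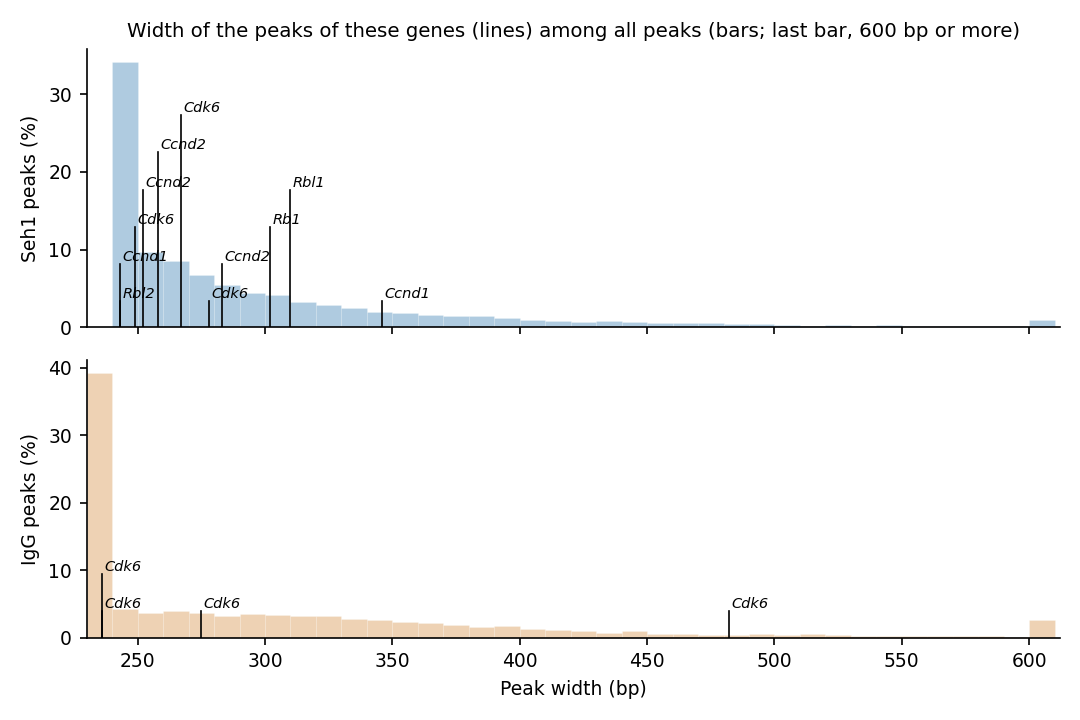
Width in bp of the peaks given to the 10 genes (black lines, labelled by gene) above the distribution of all peaks of the Seh1 library (upper panel) and the IgG library (lower panel), as percent of peaks per 10 bp. The 11 Seh1 peaks lie between 243 and 346 bp, and the widest peak of these genes is an IgG peak of 482 bp given to Cdk6.

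Other genes of the G1 to S pathway were read from a list of 51 genes, all of which matched the gene table. Of these, 12 were given a Seh1 peak, a share of 23.5% beside the 31.9% of protein-coding genes, and 5 were given an IgG peak, beside 11.3%. None of the 51 had a Seh1 peak within 1 kb of a start site, where 1.11% of protein-coding genes had one. A Seh1 peak centre lay inside 8 of them, beside 19.5% of protein-coding genes. Over the whole list these counts gave no share above that of all protein-coding genes. By role the Seh1 share was above 31.9% for CDK inhibitors (42.9%, 3 of 7 genes) and the Myc family (50.0%, 1 of 2), and below it for the others. IgG peaks were given to 3 of 10 genes of CDK activation and turnover and to 1 of 7 CDK inhibitors, beside 11.3%.

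Among cyclins E and A, 1 of 4 genes was given a Seh1 peak. Ccne2, which encodes cyclin E2, had it 9877 bp downstream of the start site, in intron 10 of 11 and in a B1 element, where the gene overlaps Ints8. Of the 7 CDK inhibitor genes, 3 were given Seh1 peaks. Cdkn1a, the gene of p21, had 1 of 466 bp in exon 2 of 3, 4864 bp downstream, and also 1 IgG peak 9238 bp downstream of its start site. Cdkn2b, which encodes p15, had 2 Seh1 peaks, the nearer 126962 bp upstream in an RMER1A repeat, and Cdkn2c, which encodes p18, had 1 at 29002 bp downstream.

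Of the 9 E2F and DP genes, 2 were given a Seh1 peak and none an IgG peak. E2f3, an activating E2F, had it in intron 1 of 6, 64113 bp downstream of the start site. Tfdp2, which encodes a partner of E2F proteins, had it 18900 bp upstream, in an intron of Gk5. In the MuvB core, which joins p107 and p130 in the DREAM repressor complex, 1 of 5 genes was given a Seh1 peak. This was Lin54, the DNA-binding subunit, with a peak in intron 3 of 13 at 20118 bp downstream, in a SINE. Lin9 and Tfdp2 each contained a Seh1 peak that was given to another gene.

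Of the 14 S phase genes, 2 were given a Seh1 peak. Mcm2 and Mcm5, subunits of the replicative helicase, had theirs in intron 6 of 15 (8751 bp downstream) and exon 16 of 17 (16804 bp downstream). Tyms, the thymidylate synthase gene, had only an IgG peak, 1976 bp upstream in an L1 element. That IgG peak was nearer to its start site than any Seh1 peak of the 10 genes or of the 51.

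The 10 genes of CDK activation and turnover had Seh1 peaks at 2 and IgG peaks at 3. Fbxw7, a subunit of the ubiquitin ligase that degrades cyclin E, had 5 Seh1 peaks, the nearest 28081 bp upstream in an ERVK repeat. It also had 1 IgG peak, 135450 bp downstream. Ccnh, which encodes the cyclin partner of CDK7, had 1 Seh1 peak 216312 bp upstream in an L1 element and 3 IgG peaks. The nearest of these IgG peaks was closer to the start site than the Seh1 peak, at 45999 bp downstream, with its centre in Rasa1. Ambra1, whose product directs the degradation of D-type cyclins, had no Seh1 peak and 2 IgG peaks, both inside the gene. Of the Myc genes, which act upstream of cyclin D2, Mycn had 4 Seh1 peaks, the nearest 59710 bp upstream, and Myc had none.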

How the data were processed

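Per the file headers, the authors annotated each deposited peak list with HOMER annotatePeaks.pl against mm10; start, end and distance to the start site are in bp. The submitters' processing notes name Bowtie2 and HOMER and also hg18 and hg38, builds of the human genome; mm10 was used, from the file headers. For the peak caller settings, duplicate filters and read numbers: not given in the sources used here. Every deposited peak score was 0, and the score was not used. Of the 3 libraries, input entered only through the peak lists. The 10 genes and the list of 51 were chosen with earlier results of these data known; 1 further gene fixed in that list is not reported here. Named genes are all 10, each listed gene given a peak, and the neighbours of their peaks.

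Peaks were joined by gene identifier to the RefSeq table of GRCm38.p6, the assembly of mm10, from 3 Mb onward (on Y from its start), which left 21775 protein-coding genes. A peak lay inside a gene if its centre did, and peaks overlapped at 1 bp or more. Functions were tested on simulated intervals. Intervals are 95% Clopper-Pearson. Python 3.11.15, pandas 2.3.3 and scipy 1.17.1 were used. Alternatives were wider peaks, peaks within 100 kb, position in place of gene name, other overlaps and all genes of the table.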

Additional observations from a re-analysis of the deposited data

How the results depend on the processing

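The stricter lists held peaks wider than the smallest width of their list, since no score was usable. Counted by position, inside or within 10 kb of the gene, 3 of the 10 genes had a Seh1 peak in place of 6, with 4 Seh1 peaks in place of 11, and 0 had an IgG peak in place of 1. These counts are smaller because the peaks of Ccnd1, Ccnd2 and Cdk6 lie farther out. Without the first megabase of annotated sequence of chromosome 5, 0 genes had an IgG peak, and 5 genes had 8 Seh1 peaks, since all peaks of Cdk6 in both lists are there. This alternative was chosen after seeing the data, as were those for peaks inside the gene. The share of protein-coding genes given a Seh1 peak was 26.2% with wider peaks, 29.1% within 100 kb and 17.2% over all genes of the table, in place of 31.9%. With wider peaks and within 100 kb the 10 genes with a Seh1 peak numbered 5 each, the listed pathway genes 11 and 10 in place of 12, and 3 genes contained a Seh1 peak with wider peaks, where Rbl2 kept only the peak given to Aktip. No member peak overlapped an IgG peak at 50% of the shorter peak or with centres within 1 kb. No paired analysis was possible because each group had 1 library. Depth is unknown, so a gene without a peak is not shown to lack binding.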
